A study of Mus musculus with 21 samples.

Results

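The Slc25 genes encode the mitochondrial carrier family of the mouse. Every protein-coding gene whose symbol starts with Slc25a was taken from the deposited count files, with pseudogenes left out. There were 47 such genes among 21967 protein-coding genes and 53801 gene identifiers. They were followed in 15 heart libraries and, separately, in 6 libraries of cultured cardiac fibroblasts. All heart libraries came from the border zone at day 7 (D7). The 3 sham hearts and the 4 hearts with myocardial infarction (MI) were of WT genotype. A further 4 WT hearts had MI and FAPI, read here from the series title as an inhibitor of Fap, the fibroblast activation protein. The last 4 hearts had MI on the FapKO genotype and no FAPI. The sources used here do not give the inhibitor's name, its dose, the strain, the animals' age or the kind of knockout allele. The labels do not say that each heart library came from its own animal, so the p-values below measure the spread between these libraries, which may be partly technical. The fibroblasts came from mouse heart ventricles and were kept for 7 days in a 5% gelatin methacryloyl gel (GelMA, a 3D hydrogel), with 3 libraries of fibroblasts grown alone and 3 of fibroblasts grown with endothelial cells from heart and lung. The co-cultured fibroblasts were sorted as CD45-CD31-Pdgfr-α+ cells, whereas those grown alone were extracted straight from the gel, so effects of the endothelial cells and of sorting cannot be told apart.

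Mitochondrial carriers are small proteins, nearly all of the inner mitochondrial membrane, that exchange one solute for another or move it with a proton. They let ADP in and ATP out, admit phosphate for ATP synthesis, pass acylcarnitines to the matrix for fatty acid oxidation, and shuttle the reducing equivalents of NADH as malate, aspartate and glutamate. Heart muscle, which makes most of its ATP by oxidative phosphorylation, is rich in several of these proteins, while other members are more abundant in tissues that export citrate or handle amino acids.

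The heart libraries held 18474138 to 37287355 counts, the co-culture libraries 4735337 to 6346015 and the libraries of fibroblasts alone 12871240 to 15650221. Fap itself, given in CPM (counts scaled to a common library size), was at 2.71, 3.40 and 3.86 in sham, 11.1, 13.2, 9.40 and 10.98 in MI, 7.75, 8.40, 10.4 and 6.47 in FAPI and 2.19, 2.32, 2.36 and 1.79 in FapKO hearts, so all FapKO hearts were below all MI hearts. A list of 20 cardiomyocyte markers summed to 107700 to 123900 CPM in sham, 13420 to 40330 in MI, 43850 to 79570 in FAPI and 64740 to 77420 in FapKO hearts, with no marker at 0 in any group. With the scaling of these CPM values, all 20 were lower in MI than in sham, and all 20 were higher in FAPI and in FapKO than in MI. Beside them, 32% of all genes were lower in MI, and 17.9% and 25% were higher in FAPI and in FapKO hearts. With total-count scaling, 17 of the 20 were lower in MI, and 18 and 19 were higher in FAPI and in FapKO hearts (beside 11.9%, 8.49% and 12.2% of all genes). In these bulk samples, fewer cardiomyocytes and less RNA per cardiomyocyte cannot be told apart. The summed level of 8 macrophage markers moved the other way, from 1858 to 2091 CPM in sham to 6853 to 9630 in MI, 4480 to 8182 in FAPI and 2733 to 5298 in FapKO hearts. CPM values here are scaled by edgeR's trimmed mean of M-values (TMM). Scaling by the total count instead moved the median change of all genes from 0.14 to 1.23 (log2) in MI against sham, from -0.03 to -0.44 in FAPI against MI, from -0.08 to -0.63 in FapKO against MI, from 0.02 to 0.16 in FAPI against FapKO, from 0.09 to 0.77 and 0.05 to 0.59 in FAPI and FapKO against sham, and from -0.06 to -0.41 in the cultures, and the counts of members called are given on both scales.

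The family took 1.55 ± 0.070% of all counts in sham hearts (SD, n = 3), 0.453 ± 0.116% in MI hearts (n = 4), 0.920 ± 0.142% in FAPI hearts (n = 4) and 1.16 ± 0.049% in FapKO hearts (n = 4). The ranges of the 4 groups run from 1.49 to 1.63%, 0.371 to 0.620%, 0.815 to 1.13% and 1.11 to 1.22%, so only those of FAPI and FapKO hearts touch. To compare members with each other, levels were expressed per kilobase of exon and scaled to the same sum in every library. On that scale Slc25a4, the ADP/ATP carrier of heart and muscle, had the highest level of the family in all 4 heart groups, at 6117 ± 522 in sham (SD, n = 3), 2001 ± 532 in MI (n = 4), 4175 ± 532 in FAPI (n = 4) and 5012 ± 52.7 in FapKO hearts (n = 4). The per-length level of its paralogue Slc25a5, an ADP/ATP carrier found in most tissues, was 763 ± 83.03 in sham and 682 ± 156 in MI hearts. Slc25a11, which exchanges 2-oxoglutarate for malate, came next in sham hearts with a level per length of 337 ± 21.5, and the phosphate carrier Slc25a3 followed with 323 ± 19.4. Slc25a11 was the higher of those 2 within every sham heart, though by less than the SD between hearts. This order rests on the merged exon lengths, 5550 bases for Slc25a3. In CPM, Slc25a3 (mean 2258) stood above Slc25a5 (1583) and Slc25a11 (898) in sham hearts. Together Slc25a3, Slc25a4 and Slc25a5 made up 93.1% of the family's summed per-length level in sham, 87.3% in MI, 92.5% in FAPI and 92.3% in FapKO hearts. Slc25a1, the citrate carrier, was twentieth in sham hearts with a level per length of 2.72 ± 0.374 and stood at 26.01 ± 3.48 in MI hearts. These levels serve to compare members within a library. Between groups they differ from the TMM-scaled changes below, because each library is set to its own sum. With TMM, MI against sham gave a log2 change of -1.76 for Slc25a5 and 1.62 for Slc25a1.

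Promoter windows are shown for 5 members around which the heart results turn: both ADP/ATP carriers, whose counts moved by unequal amounts, Slc25a34, which had the largest fall in MI hearts, and Slc25a1 and Slc25a43, which had the largest rises. In GENCODE M21 (mm10) the genes span chr8:46206797-46211284 (Slc25a4, minus strand), chrX:36795651-36798807 (Slc25a5, plus), chr4:141618824-141623821 (Slc25a34, minus), chr16:17925223-17928219 (Slc25a1, minus) and chrX:36743659-36777202 (Slc25a43, plus). Each run is the 250 bases before the annotated start of the gene in RefSeq (GRCm38.p6), 5′ to 3′ on the gene's own strand. Capitals mark matches, on either strand, to 1 of 4 short motifs. They are TATAA (a core of the TATA box), then CCAAT (the box bound by NF-Y), then CACGTG (an E-box) and last AAGGTCA (letters recognised by estrogen-related receptors); none of the 4 contains another.
Slc25a4, chr8:46211063-46211312, minus strand: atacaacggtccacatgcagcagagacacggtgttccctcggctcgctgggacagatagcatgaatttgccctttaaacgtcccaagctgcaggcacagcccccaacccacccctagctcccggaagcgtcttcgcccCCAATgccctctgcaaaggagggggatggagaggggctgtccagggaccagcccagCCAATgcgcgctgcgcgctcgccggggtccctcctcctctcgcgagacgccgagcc
Slc25a5, chrX:36795347-36795596, plus strand: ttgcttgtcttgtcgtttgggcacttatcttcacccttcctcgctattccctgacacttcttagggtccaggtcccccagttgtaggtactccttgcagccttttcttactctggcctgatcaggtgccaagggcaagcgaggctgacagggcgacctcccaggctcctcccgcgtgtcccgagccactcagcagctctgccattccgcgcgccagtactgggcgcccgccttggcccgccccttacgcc
Slc25a34, chr4:141623835-141624084, minus strand: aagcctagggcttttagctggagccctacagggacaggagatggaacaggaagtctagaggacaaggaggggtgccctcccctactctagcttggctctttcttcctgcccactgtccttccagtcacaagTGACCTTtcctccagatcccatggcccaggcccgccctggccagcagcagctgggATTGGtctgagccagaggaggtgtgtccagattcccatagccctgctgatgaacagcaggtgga
Slc25a1, chr16:17928220-17928469, minus strand: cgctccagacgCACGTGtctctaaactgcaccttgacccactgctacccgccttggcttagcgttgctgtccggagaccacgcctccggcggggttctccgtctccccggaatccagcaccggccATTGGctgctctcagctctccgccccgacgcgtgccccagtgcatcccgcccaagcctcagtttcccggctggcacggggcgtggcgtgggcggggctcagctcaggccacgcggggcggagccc
Slc25a43, chrX:36743382-36743631, plus strand: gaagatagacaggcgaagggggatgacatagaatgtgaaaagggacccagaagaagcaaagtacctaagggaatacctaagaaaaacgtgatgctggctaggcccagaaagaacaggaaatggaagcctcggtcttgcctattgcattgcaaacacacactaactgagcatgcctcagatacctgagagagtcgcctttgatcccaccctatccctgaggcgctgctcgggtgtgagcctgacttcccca

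The Slc25a4 window holds CCAAT at 112 and at 56 bases before the RefSeq start. GENCODE M21 places the start of Slc25a4 222 bases farther upstream, so by that annotation 222 of the 250 bases, both CCAAT strings included, lie inside the gene. The Slc25a34 window holds AAGGTCA on the reverse strand 119 bases before the start, and CCAAT on the reverse strand 64 bases before it. The Slc25a1 window holds CACGTG 239 bases before the start and CCAAT on the reverse strand 125 bases before it. The windows of Slc25a5 and Slc25a43 hold none of the 4 strings. RefSeq windows were matched for 36 of the 47 members, with 46 windows in all. CACGTG occurred in 17.4% of these 46 windows, those of Slc25a1, Slc25a13, Slc25a14, Slc25a15, Slc25a31, Slc25a33 and Slc25a36, and in 6.02% of all 32851 windows of the same length. CCAAT was found in 45.7% of the members' windows and in 33.8% of all windows. TATAA was in 6.52% against 22.8%, and AAGGTCA in 2.17% against 4.08%. A match describes letters in these windows and is no evidence of binding.

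In MI hearts, both ADP/ATP carriers (Slc25a4 and Slc25a5), the phosphate carrier (Slc25a3), the carnitine carrier (Slc25a20) and the carriers of the malate-aspartate shuttle (Slc25a11, Slc25a12 and Slc25a13) were lower than in sham hearts, and the citrate carrier (Slc25a1) was higher. With FAPI and in FapKO hearts, each of the first 7 was higher and Slc25a1 lower than in MI. These directions and calls were the same with total-count scaling. Of the 41 members that passed the filter on low counts, 23 were lower and 7 higher in MI than in sham (edgeR quasi-likelihood test, Benjamini-Hochberg adjusted p under 0.05), whereas with total-count scaling 13 were lower and 19 higher (31.7% and 46.3% of the members, beside 11.9% and 74.2% of all genes on that scale). With TMM, 69.1% of all 17064 genes tested were called in either direction, 32% lower and 37.1% higher. The share of members called, 73.2%, was near that background. The members' median log2 change was -0.81, beside 0.14 for all genes. With FAPI, 18 members were higher and 4 lower than in MI hearts, against 29.8% of all genes called (17.9% higher and 11.9% lower), and with total-count scaling the split was 10 and 13 (24.4% and 31.7% of the members, beside 8.49% and 49.7% of all genes). In FapKO hearts, 20 members were higher and 4 lower than in MI, against 51% of all genes called (25% higher and 26% lower), and 14 and 18 with total-count scaling (34.1% and 43.9% of the members, beside 12.2% and 61.3% of all genes). The members' median log2 change was 0.29 for FAPI and 0.30 for FapKO, beside -0.03 and -0.08 over all genes. Both comparisons share the 4 MI hearts, so their values are given side by side and the likeness between them is not used as a result. Between FAPI and FapKO hearts, 1 member was higher and 7 were lower with FAPI, against 13.2% of all genes called (7.05% higher and 6.12% lower), and 2 and 8 with total-count scaling (beside 9.22% and 4.37% of all genes). The lower count was 12 without FAPI replicate 4, and with only the groups compared no member was higher (edgeR). Groups did not overlap for 29 of the 41 members in MI against sham (67.5% of all genes), for 23 in FAPI against MI (26.1%) and for 23 in FapKO against MI (45.4%). Between FAPI and FapKO hearts, 1 member was higher and 9 lower without overlap, beside 9.77% and 8.88% of all genes.

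**Figure D1:**
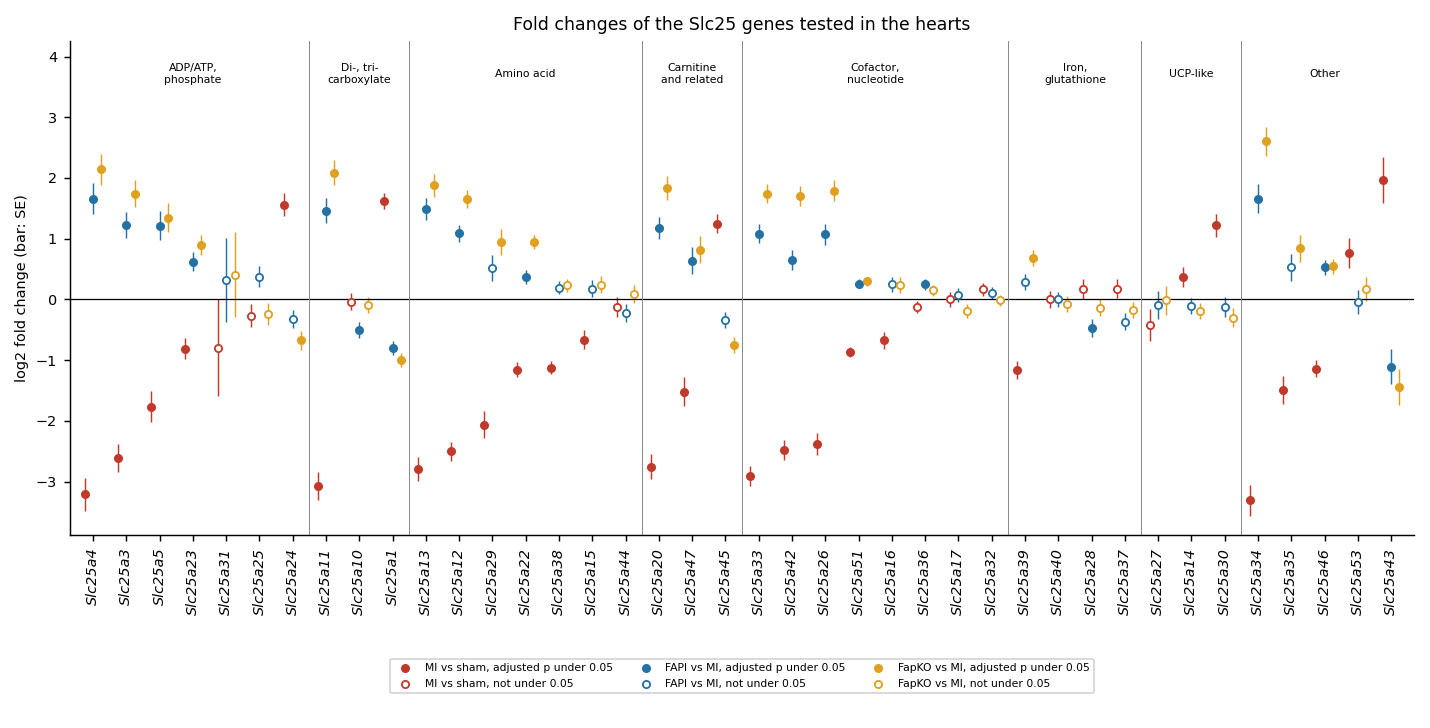
Log2 fold change with its SE (y axis) for 40 of the 41 tested members, grouped by role (x axis), in MI against sham (red), FAPI against MI (blue) and FapKO against MI (orange) hearts, with filled points for adjusted p under 0.05. The red points run from -3.31 for Slc25a34 to 1.97 for Slc25a43, on TMM-scaled counts; with total-count scaling the majority direction of the calls turns in all 3 comparisons.

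Among carriers that move adenine nucleotides and phosphate, 4 of the 7 tested members were lower in MI than in sham and 1 was higher; 4 were higher with FAPI than in MI, and 4 higher and 1 lower in FapKO hearts. With total-count scaling these counts were 3 lower and 2 higher, 3 higher and 1 lower, and 4 higher and 2 lower. Beside these and the role counts below, 32% of all genes were lower and 37.1% higher in MI than in sham (11.9% and 74.2% with total-count scaling). Against MI, 17.9% were higher and 11.9% lower with FAPI (8.49% and 49.7%), and 25% higher and 26% lower in FapKO hearts (12.2% and 61.3%). Slc25a4 was at 18457, 19555 and 16263 CPM in sham, 1569.5, 1352, 3134 and 1794 in MI, 4998, 6322, 4989 and 8498 in FAPI and 9086, 8003, 9508 and 8011 in FapKO hearts. All MI hearts lay below all others, FAPI and FapKO hearts overlapped with each other, and neither reached the lowest sham heart. Its log2 change was -3.21 ± 0.273 (SE) in MI against sham (adjusted p = 3.87e-08, edgeR), 1.66 ± 0.25 in FAPI against MI (adjusted p = 0.000251, edgeR) and 2.14 ± 0.253, a 4.41-fold difference, in FapKO against MI (adjusted p = 5.28e-06, edgeR). FAPI and FapKO hearts did not pass the test against each other (-0.48, adjusted p = 0.201, edgeR), and both remained below sham (-1.54 and -1.06). Slc25a5 was at 1844, 1541 and 1364 CPM in sham, 377, 326, 713 and 449.7 in MI, 840.2, 1137, 908 and 1448 in FAPI and 1023, 1087, 1527 and 1105 in FapKO hearts. Here FAPI and FapKO hearts overlapped with sham hearts. It fell by 1.76 on the log2 scale in MI against sham (SE 0.25, adjusted p = 9.98e-06, edgeR), and rose by 1.22 ± 0.234 with FAPI and 1.35 ± 0.235 in FapKO hearts (adjusted p = 0.00126 and 0.000182, edgeR). The phosphate carrier Slc25a3 was at 2434, 2315 and 2025 CPM in sham, 296, 268, 552 and 363 in MI, 664, 877, 737 and 1177 in FAPI and 1168, 1172, 1427 and 1185 in FapKO hearts. Every MI heart was below every other heart, with log2 changes of -2.61 ± 0.234 in MI against sham, 1.22 ± 0.215 with FAPI and 1.74 in FapKO against MI, all past the threshold.

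**Figure D2:**
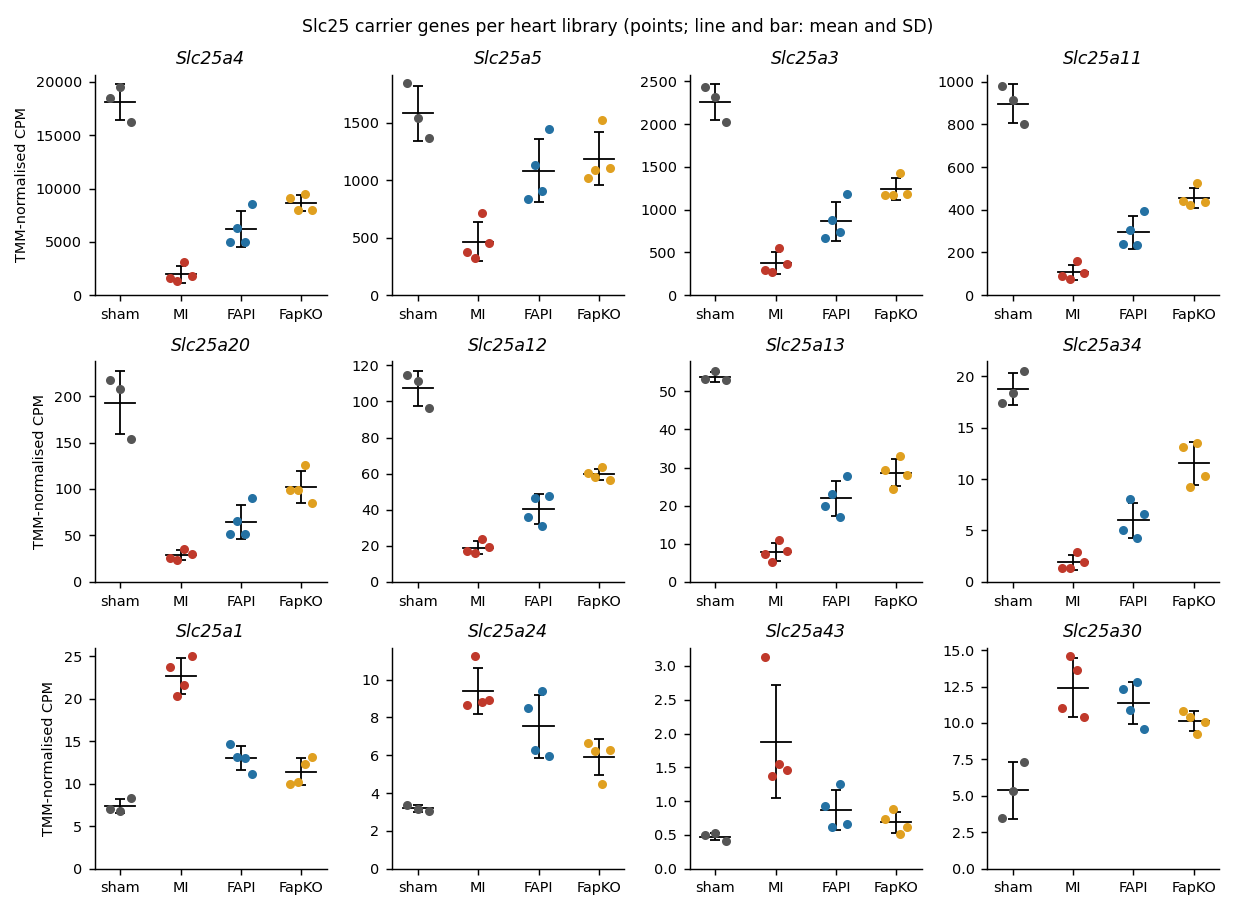
TMM-scaled CPM (y axis) of 12 members in each heart, one panel per gene, with 1 point per heart and a line and bar for the mean and SD of the 3 sham, 4 MI, 4 FAPI and 4 FapKO hearts. In the Slc25a4 panel MI hearts reach 3134 CPM at most and sham hearts start at 16263, while in the Slc25a1 panel MI hearts start at 20.3 CPM and sham hearts end at 8.27.

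The ATP-Mg/phosphate carriers, which adjust the adenine nucleotide content of the matrix, did not move as one. Slc25a24 was at 3.39, 3.14 and 3.03 CPM in sham, 8.66, 11.2, 8.84 and 8.90 in MI, 8.48, 6.28, 9.39 and 5.98 in FAPI and 6.65, 6.23, 4.50 and 6.28 in FapKO hearts. Sham hearts were lowest and FAPI hearts overlapped with MI hearts. It rose in MI against sham by 1.56 ± 0.189 (adjusted p = 1.78e-06, edgeR) and was lower in FapKO than in MI hearts (-0.67 ± 0.155, adjusted p = 0.00179, edgeR), while FAPI against MI gave -0.32 and did not pass. Slc25a23, of the same subgroup, fell in MI hearts (-0.81) and was higher with FAPI (0.62) and in FapKO hearts (0.90), but with total-count scaling its change was 0.27 in MI against sham and 0.20, without a call, in FAPI against MI. Slc25a25 was the member that was higher in FAPI than in FapKO hearts (0.62 ± 0.173, adjusted p = 0.0278, edgeR), although the groups overlapped, at 4.20, 5.04, 4.10 and 5.14 and 2.19, 4.26, 2.76 and 2.77 CPM, and its call was lost without FAPI replicate 2 or 4 or FapKO replicate 1, 3 or 4 (0.50 to 0.58). Slc25a31, the ADP/ATP carrier of germ cells, passed in none of these comparisons.

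Carriers of di- and tricarboxylates split in direction. Slc25a11, the 2-oxoglutarate/malate carrier of the malate-aspartate shuttle, was at 980.0, 913 and 801 CPM in sham, 88.9, 75.5, 157 and 106 in MI, 239, 307, 232 and 396 in FAPI and 439, 421, 524 and 435 in FapKO hearts. No group overlapped with another, in the order MI, FAPI, FapKO and sham. Its log2 change was -3.07 ± 0.229 in MI against sham (adjusted p = 1.1e-08, edgeR), 1.46 ± 0.209 with FAPI (adjusted p = 0.000196, edgeR) and 2.09 ± 0.213 in FapKO against MI (adjusted p = 1.5e-06, edgeR). FAPI against FapKO missed the threshold (-0.63, adjusted p = 0.053, edgeR) and passed with DESeq2 (adjusted p = 0.0192). Slc25a1, which exports citrate to the cytosol for fatty acid and sterol synthesis, went the other way, at 7.08, 6.79 and 8.27 CPM in sham, 23.8, 20.3, 21.6 and 25.01 in MI, 14.7, 13.2, 13.005 and 11.2 in FAPI and 10.00, 10.2, 12.3 and 13.2 in FapKO hearts. All MI hearts were above all others and all sham hearts below, with FAPI and FapKO hearts overlapping in between. It rose 3.07-fold in MI against sham (log2 1.62 ± 0.135, adjusted p = 3.12e-08, edgeR) and was lower with FAPI (-0.80 ± 0.114, adjusted p = 0.000189, edgeR) and in FapKO than in MI hearts (-0.99 ± 0.115, adjusted p = 4.67e-06, edgeR). Markers of adipocytes, cells rich in this carrier, averaged 3.38 ± 0.347 (log2 CPM, SD) in sham, 5.598 ± 0.31 in MI, 3.04 ± 0.662 in FAPI and 4.46 ± 0.878 in FapKO hearts. Of these 7 markers, 6 were higher and 1 lower in MI than in sham (6 and 0 with total-count scaling). Their summed level was 1540 to 1659 CPM in sham, 1103 to 1720 in MI, 839.6 to 1098 in FAPI and 2037 to 2823 in FapKO hearts. Fabp4, the marker that was lower in MI, weighs most in this sum. Its means were 1551 CPM in sham, 774 in MI, 879 in FAPI and 2008 in FapKO hearts. The part of adipocytes in this result was not tested. Slc25a10, which exchanges malate and succinate for phosphate, did not pass in MI against sham with TMM scaling but was higher with total-count scaling (1.04), and was lower with FAPI than in MI (-0.50 ± 0.134, adjusted p = 0.0103, edgeR), at 8.94, 9.05, 11.8 and 10.7 CPM in MI and 6.96, 6.46, 7.12 and 7.97 in FAPI hearts, which did not overlap. Slc25a21, the oxodicarboxylate carrier, had 0 to 4 counts per heart and was not tested.

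Of the 7 amino acid carriers tested, 6 were lower in MI than in sham and none was higher, 3 were higher with FAPI, 4 were higher in FapKO hearts and none was lower in either comparison with MI. These counts of 0 in edgeR were also 0 at an unadjusted p under 0.05, with DESeq2 and with limma-voom, but with total-count scaling 2 were higher and 3 lower in MI, 2 higher and 1 lower with FAPI, and 3 higher and 2 lower in FapKO hearts. Slc25a12 and Slc25a13 exchange aspartate for glutamate in the malate-aspartate shuttle. Slc25a12 was at 115, 111 and 96.3 CPM in sham, 16.9, 15.9, 23.7 and 19.4 in MI, 35.97, 46.4, 31.1 and 47.8 in FAPI and 60.5, 58.01, 63.4 and 56.6 in FapKO hearts. The 4 groups did not overlap. Slc25a12 fell in MI (-2.50 ± 0.156, adjusted p = 2.31e-09, edgeR), rose with FAPI (1.09 ± 0.144, adjusted p = 0.000128, edgeR) and in FapKO hearts (1.65 ± 0.145, adjusted p = 4.25e-07, edgeR), and was lower in FAPI than in FapKO (-0.56 ± 0.141, adjusted p = 0.0156, edgeR), a call lost without FAPI replicate 1 or 3 or FapKO replicate 3 (-0.46 to -0.53). Slc25a13 was at 53.2, 55.3 and 52.999 CPM in sham, 7.21, 5.16, 10.9 and 8.02 in MI, 19.99, 23.05, 16.9 and 27.8 in FAPI and 29.3, 24.5, 33.1 and 27.9 in FapKO hearts. FAPI and FapKO hearts overlapped, and MI hearts were below all others. Its log2 changes were -2.79 ± 0.2 in MI, 1.49 ± 0.186 with FAPI and 1.88 ± 0.188 in FapKO hearts, all past the threshold. Slc25a22, a glutamate carrier, was at 11.5, 14.8 and 13.3 CPM in sham, 5.66, 6.19, 6.07 and 5.70 in MI, 7.62, 9.09, 6.85 and 7.02 in FAPI and 10.4, 10.6, 13.01 and 11.5 in FapKO hearts. It was lower in FAPI than in FapKO hearts (-0.58 ± 0.112, adjusted p = 0.0033, edgeR), with no overlap, and FapKO and sham hearts did not pass the test against each other (-0.21, adjusted p = 0.182, edgeR). Slc25a29, a carrier of basic amino acids, fell in MI hearts by 2.06 on the log2 scale (SE 0.223). The ornithine carrier Slc25a15 (-0.66) and the glycine carrier Slc25a38 (-1.12) were lower in MI with TMM scaling, but with total-count scaling they stood at 0.43 and -0.04. Slc25a44, a carrier of branched-chain amino acids, did not pass (-0.12).

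The carnitine/acylcarnitine carrier Slc25a20, which brings long-chain acyl groups into the matrix for oxidation, was at 218, 207 and 154 CPM in sham, 25.5, 23.5, 35.2 and 30.2 in MI, 51.8, 65.1, 51.5 and 89.997 in FAPI and 98.9, 98.6, 125 and 84.7 in FapKO hearts. MI hearts were lowest and sham hearts highest, without overlap, and FAPI and FapKO hearts overlapped between them. The log2 change was -2.76 ± 0.205 in MI (adjusted p = 1.03e-08, edgeR), 1.18 ± 0.188 with FAPI (adjusted p = 0.000358, edgeR) and 1.83 ± 0.191 in FapKO (adjusted p = 1.75e-06, edgeR). FAPI hearts were lower than FapKO hearts (-0.66 ± 0.185, adjusted p = 0.0279, edgeR), a call lost without FAPI replicate 1 or 3 or FapKO replicate 1 or 3 (-0.54 to -0.67). Slc25a45 moved against it, at 4.00, 3.46 and 3.86 CPM in sham, 9.28, 8.04, 8.24 and 10.3 in MI, 7.06, 6.50, 8.82 and 6.06 in FAPI and 5.88, 5.79, 4.27 and 5.38 in FapKO hearts. It rose in MI hearts (1.25 ± 0.159, adjusted p = 3.29e-06, edgeR) and was lower in FapKO than in MI (-0.75 ± 0.135, adjusted p = 0.000233, edgeR), without overlap in either comparison, while FAPI hearts overlapped with MI hearts and did not pass (-0.33). Slc25a47 was lower in MI (-1.51), which total-count scaling reduced to -0.43 without a call.

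Cofactor and nucleotide carriers were lower in MI in 6 of 9 tested members, with no member higher in edgeR, at an unadjusted p under 0.05, in DESeq2 or in limma-voom. With FAPI 6 were higher than in MI, and in FapKO hearts 5. With total-count scaling 4 were lower and 4 higher in MI, 2 higher and 2 lower with FAPI, and 4 higher and 4 lower in FapKO hearts. Slc25a33, a pyrimidine nucleotide carrier, was at 44.5, 39.98 and 48.2 CPM in sham, 4.43, 4.90, 8.12 and 6.24 in MI, 12.2, 13.4, 10.5 and 13.9 in FAPI and 19.6, 18.8, 18.8 and 22.1 in FapKO hearts. No group overlapped, in the order MI, FAPI, FapKO and sham. It fell in MI hearts (-2.90 ± 0.167, adjusted p = 1.24e-09, edgeR) and rose with FAPI (1.08 ± 0.156) and in FapKO hearts (1.74 ± 0.156), and FAPI was below FapKO (-0.67 ± 0.15, adjusted p = 0.00886, edgeR). Up to 14.9% of the exon bases of Slc25a33 overlap another gene, and whether counting used strand is not given in the sources used here. Slc25a42, which brings coenzyme A into the matrix, was at 10.3, 10.97 and 11.1 CPM in sham, 1.64, 1.62, 2.27 and 2.23 in MI, 2.72, 3.40, 2.42 and 3.64 in FAPI and 7.64, 6.20, 6.30 and 5.19 in FapKO hearts. The 4 groups again stood apart in the same order. Slc25a42 had the largest difference between FAPI and FapKO hearts among the 8 members called there (-1.05 ± 0.155, adjusted p = 0.000455, edgeR). Slc25a26, the S-adenosylmethionine carrier, was likewise lower in MI than in sham (-2.38 ± 0.183), higher than MI with FAPI (1.07) and in FapKO (1.79), and lower in FAPI than in FapKO (-0.72 ± 0.163, adjusted p = 0.0091, edgeR). The NAD+ carrier Slc25a51 (-0.87) and Slc25a16 (-0.67) were lower in MI with TMM scaling, but were at 0.22 and 0.41 with total-count scaling. Slc25a32 (0.17) and Slc25a36 (-0.13) did not pass in MI against sham. Slc25a17, which carries coenzyme A and related cofactors across the peroxisomal membrane, was at 34.4, 29.9 and 28.1 CPM in sham, 34.97, 27.3, 27.5 and 33.99 in MI, 32.7, 28.05, 36.6 and 32.6 in FAPI and 23.9, 29.5, 28.3 and 26.8 in FapKO hearts. Its groups overlapped and it passed in none of the comparisons with sham or MI hearts (MI against sham 0.01).

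Of the 4 iron and glutathione carriers, 1 was lower in MI than in sham, whereas with total-count scaling 3 were higher, and 3 were lower with FAPI and in FapKO hearts than in MI. Over all genes, 32% were lower in MI with TMM. With total-count scaling 74.2% were higher in MI, and 49.7% and 61.3% were lower with FAPI and in FapKO hearts. Slc25a39, which imports glutathione, was at 204, 157 and 163 CPM in sham, 89.6, 63.6, 78.6 and 78.8 in MI, 89.2, 109, 74.9 and 106 in FAPI and 119, 116, 143 and 120.4 in FapKO hearts. It fell in MI (-1.17 ± 0.147, adjusted p = 2.7e-06, edgeR), where total-count scaling gave -0.08 and no call, and it was higher in FapKO than in MI hearts (0.68 ± 0.137, adjusted p = 0.000604, edgeR), while FAPI hearts overlapped with MI hearts. Slc25a37 and Slc25a28, the mitoferrins that import iron, did not pass in MI against sham with TMM scaling. Slc25a37 was at 7.33, 5.88 and 6.41 CPM in sham, 6.93, 8.40, 6.72 and 7.59 in MI, 6.55, 6.14, 5.86 and 4.56 in FAPI and 7.00, 7.56, 5.23 and 6.51 in FapKO hearts. MI, FapKO and sham hearts overlapped with each other, while all FAPI hearts were below all MI hearts. FAPI against MI gave -0.36 and missed the threshold (adjusted p = 0.0513, edgeR), and passed with limma-voom (-0.38, adjusted p = 0.0414), with the replicate block (adjusted p = 0.0481, edgeR), with only the groups compared (adjusted p = 0.0482, edgeR) and with total-count scaling (-0.78). Slc25a28 was lower with FAPI than in MI (-0.47 ± 0.143, adjusted p = 0.0216, edgeR), a call lost without MI replicate 4 or FAPI replicate 4 (-0.43 and -0.44). Since Slc25a37 is abundant in red cell precursors, markers of erythroid cells are given: 6 of 6 were lower in MI than in sham, with summed levels of 5194 to 17090 CPM in sham, 993 to 3017 in MI, 2189 to 4238 in FAPI and 3483 to 8091 in FapKO hearts. Their part in these values was not tested.

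Of the 3 uncoupling-protein-like carriers tested, 2 were higher in MI than in sham, beside 37.1% of all genes. Slc25a30 was at 3.45, 5.36 and 7.31 CPM in sham, 11.05, 14.6, 13.7 and 10.4 in MI, 12.3, 10.9, 12.8 and 9.59 in FAPI and 10.8, 10.4, 9.25 and 10.1 in FapKO hearts. Each sham heart was below each other heart. It rose in MI against sham (1.22 ± 0.195, adjusted p = 3.63e-05, edgeR), and none of the 3 tested members of the subgroup passed in FAPI or FapKO against MI, where the number at an unadjusted p under 0.05 was also 0, as was the number called by DESeq2 or limma-voom. With total-count scaling, however, 3 were higher in MI, 2 were lower with FAPI and 3 lower in FapKO hearts (beside 74.2%, 49.7% and 61.3% of all genes). Slc25a30 stayed above sham with FAPI (1.09) and in FapKO hearts (0.92). Slc25a14 was at 2.96, 4.31 and 3.38 CPM in sham, 5.48, 4.02, 3.86 and 5.01 in MI, 4.76, 3.83, 4.28 and 4.19 in FAPI and 3.99, 4.05, 4.16 and 3.90 in FapKO hearts. Its groups overlapped, and its rise in MI against sham (0.37 ± 0.157, adjusted p = 0.0453, edgeR) was lost with DESeq2, limma-voom, another size factor, no filter on low counts, the replicate block (0.36, adjusted p = 0.0807, edgeR), only the groups compared, or without sham replicate 1 or 3 or MI replicate 1 or 4 (0.25 to 0.34).

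Several members have no settled substrate. Slc25a34 was at 17.4, 18.4 and 20.5 CPM in sham, 1.36, 1.37, 2.92 and 1.97 in MI, 5.00, 8.07, 4.28 and 6.64 in FAPI and 13.1, 9.20, 13.5 and 10.3 in FapKO hearts. The 4 groups did not overlap, in the order MI, FAPI, FapKO and sham. Slc25a34 had the family's largest fall in MI against sham (-3.31 ± 0.252, adjusted p = 1.33e-08, edgeR) and its largest rise in FapKO against MI (2.60 ± 0.239, a 6.07-fold difference, adjusted p = 6.29e-07, edgeR). With FAPI it rose by 1.66 ± 0.24 (adjusted p = 0.000202, edgeR), and FAPI hearts were lower than FapKO hearts (-0.94 ± 0.217, adjusted p = 0.01, edgeR). Slc25a46, an outer-membrane protein that takes part in mitochondrial fission and lipid traffic, was at 39.5, 50.1 and 39.6 CPM in sham, 16.96, 16.5, 22.3 and 22.6 in MI, 27.3, 24.7, 28.4 and 32.7 in FAPI and 26.7, 28.9, 31.4 and 27.2 in FapKO hearts. Its fall in MI (-1.14 ± 0.135, adjusted p = 1.37e-06, edgeR) was -0.06 and not called with total-count scaling. Slc25a43 had the largest rise in MI at a low level, with 0.493, 0.523 and 0.413 CPM in sham, 3.13, 1.37, 1.56 and 1.46 in MI, 0.930, 0.621, 1.26 and 0.664 in FAPI and 0.730, 0.886, 0.516 and 0.624 in FapKO hearts. These values rest on 6 to 8 counts per sham heart and 38 to 101 per MI heart. It rose by 1.97 ± 0.384 in MI (adjusted p = 0.000255, edgeR) and was lower than MI with FAPI (-1.10 ± 0.286, adjusted p = 0.0086, edgeR) and in FapKO (-1.44 ± 0.299, adjusted p = 0.000797, edgeR), and FapKO hearts overlapped with sham hearts. Slc25a35 was lower in MI (-1.49, and -0.43 without a call with total-count scaling). Slc25a53 also rose in MI (0.76 ± 0.251, adjusted p = 0.0128, edgeR).

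Against sham, 22 members were lower and 6 higher in FAPI hearts (55.8% of all genes called), and 20 were lower and 5 higher in FapKO hearts (39.5% of all genes called). Without overlap there were 22 lower and 7 higher with FAPI (57.5% of all genes, 27.5% lower and 30% higher), and 19 lower and 5 higher in FapKO hearts (46.8% of all genes, 23.7% lower and 23.1% higher). With total-count scaling these splits were 11 lower and 14 higher, and 8 lower and 16 higher, beside 9.56% lower and 63.1% higher, and 4.83% lower and 53.7% higher, among all genes. Slc25a33 had the lowest change in both, level with Slc25a42 in the first, -1.82 ± 0.161 with FAPI and -1.16 ± 0.159 in FapKO hearts. Slc25a5 passed in neither (-0.55, adjusted p = 0.0708, and -0.42, adjusted p = 0.192, edgeR). Of the members raised in MI, Slc25a24, Slc25a30, Slc25a45, Slc25a1 and Slc25a53 stayed above sham in both groups, at 1.24, 1.09, 0.91, 0.82 and 0.72 with FAPI and 0.89, 0.92, 0.50, 0.63 and 0.93 in FapKO hearts. The call for Slc25a53 with FAPI was lost without sham replicate 1, sham replicate 2 or FAPI replicate 3 (0.52 to 0.68), and with DESeq2 (0.67, adjusted p = 0.0537) and limma-voom (0.66, adjusted p = 0.0661), and that for Slc25a45 in FapKO without sham replicate 2 or FapKO replicate 1 or 2 (0.44 to 0.45) and with limma-voom (0.48, adjusted p = 0.058).

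Close paralogues were compared within each library by the log2 ratio of their counts, which does not depend on scaling between libraries. The ratio of Slc25a4 to Slc25a5 was 3.52 ± 0.177 in sham hearts (SD, n = 3), 2.06 ± 0.058 in MI (n = 4), 2.52 ± 0.057 in FAPI (n = 4) and 2.88 ± 0.21 in FapKO hearts (n = 4). No group overlapped with another: each MI heart had a lower ratio than each sham heart, and FAPI and FapKO hearts lay in between. The difference from MI was 0.45 with FAPI and 0.82 in FapKO, each with p = 0.0286 in an exact two-sided permutation test, the smallest that 4 against 4 allows, and 0.0571 after Benjamini-Hochberg adjustment over the 10 tests of 5 pairs. The ratio of the pyrimidine nucleotide carriers Slc25a33 to Slc25a36 was 0.06 ± 0.094 in sham, -2.75 ± 0.439 in MI, -1.89 ± 0.289 in FAPI and -1.12 ± 0.133 in FapKO hearts, with differences from MI of 0.86 (exact permutation test, adjusted p = 0.0952) and 1.63 (adjusted p = 0.0571, exact permutation test). For Slc25a12 to Slc25a13 the differences were -0.43 (adjusted p = 0.0571, exact permutation test) and -0.25 (adjusted p = 0.122, exact permutation test). For the glutathione carriers Slc25a39 to Slc25a40 they were 0.29 (adjusted p = 0.286, exact permutation test) and 0.77 (adjusted p = 0.0571, exact permutation test), and for the mitoferrins Slc25a37 to Slc25a28 they were 0.10 and -0.03 (adjusted p = 0.730 and 0.886, exact permutation test). No pair passed 0.05 after adjustment. How reads shared by near-identical copies were assigned is not given in the sources used here.

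**Figure D3:**
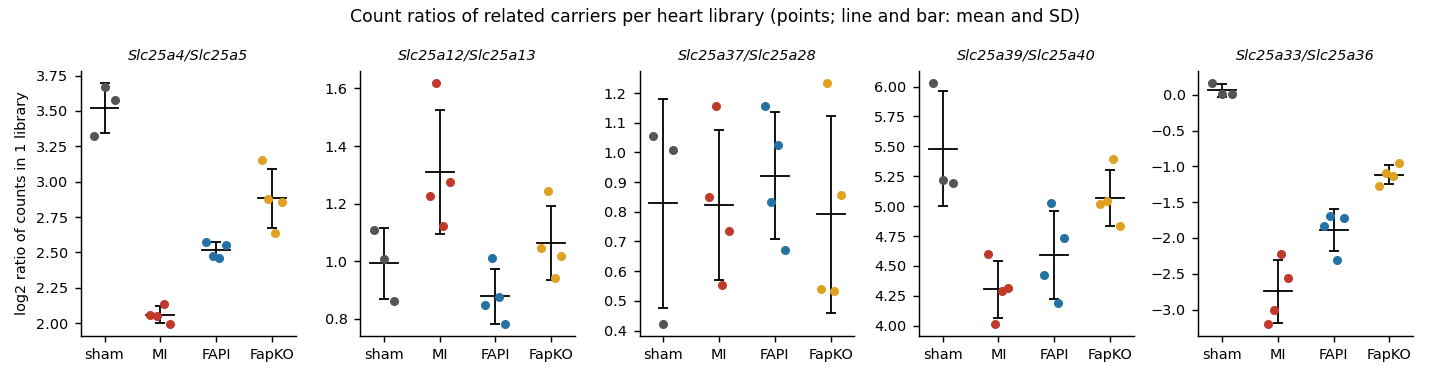
Log2 ratio of the counts of 5 paralogue pairs (y axis) in each sham, MI, FAPI and FapKO heart (x axis), 1 point per heart. For Slc25a4 to Slc25a5 the MI hearts lie between 1.996 and 2.137 and the FapKO hearts between 2.638 and 3.151.

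Other genes of mitochondrial transport, from other lists, are given for comparison. Over all genes, 32% were lower in MI, and 17.9% and 25% were higher with FAPI and in FapKO hearts (11.9%, 8.49% and 12.2% with total-count scaling). In the other direction, 37.1% were higher in MI, and 11.9% and 26% were lower with FAPI and in FapKO hearts (74.2%, 49.7% and 61.3% with total-count scaling). Of 10 genes that import carriers into the mitochondrion, all 10 were lower in MI than in sham (median log2 change -1.21), 8 were higher with FAPI and 9 in FapKO than in MI (medians 0.51 and 0.70), but with total-count scaling 4 were lower and 2 higher in MI (median -0.13), and 2 and 3 were higher with FAPI and in FapKO hearts. Timm29, a subunit of the carrier translocase, changed by -1.73, 0.50 and 0.88 in these comparisons (-0.64, 0.09 and 0.34 with total-count scaling, where the second was not called). The 4 enzymes of the malate-aspartate shuttle were lower in MI and higher with FAPI and in FapKO hearts in 4 of 4 cases (medians -2.90, 1.65 and 1.97), also with total-count scaling (medians -1.85, 1.25 and 1.45). Got2, the mitochondrial aspartate aminotransferase, changed by -3.13, 1.71 and 1.93. Among 17 other mitochondrial transport proteins tested, 9 were lower and 6 higher in MI, 9 were higher and 5 lower with FAPI, and 9 were higher and 4 lower in FapKO hearts, and with total-count scaling 7 lower and 8 higher, 7 higher and 6 lower, and 7 higher and 7 lower. Vdac1, the main pore of the outer membrane, changed by -2.02, 1.12 and 1.42.

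The cardiomyocyte marker level moved with these results: its mean over the 20 markers was 11.01 ± 0.080 (log2 CPM, SD) in sham, 8.29 ± 0.636 in MI, 9.97 ± 0.408 in FAPI and 10.4 ± 0.145 in FapKO hearts. Its MI range, 7.84 to 9.21, overlaps with no other group (9.61 to 10.45 in FAPI, 10.27 to 10.59 in FapKO, 10.92 to 11.07 in sham). In each comparison with MI the level therefore largely follows the group. A model with both can hardly separate them, so a call lost in it decides nothing about the source of a difference. With that level as a covariate in the edgeR model, 6 members were lower and 1 higher in MI than in sham (14.6% and 2.44%, beside 3.11% and 5.02% of all genes). They were Slc25a4 (-0.99), Slc25a11 (-1.05), Slc25a12 (-1.18), Slc25a13 (-1.04), Slc25a33 (-1.66) and the NAD+ carrier Slc25a51 (-0.84), with Slc25a1 higher (1.34, adjusted p = 0.0232, edgeR). No member was called in FAPI against MI or in FapKO against MI in that edgeR model, where at an unadjusted p under 0.05 there were 1 higher and 5 lower with FAPI and 9 higher and 1 lower in FapKO hearts. Over all genes the same model called 1 higher and 28 lower with FAPI, and 21 higher and 132 lower in FapKO hearts. All 8 members called between FAPI and FapKO hearts kept their call with the covariate, and Slc25a11 was then also lower with FAPI (-0.33, adjusted p = 0.026, edgeR). That made 2.44% of the members higher and 19.5% lower, beside 5.53% and 4.06% of all genes. The marker levels of these 2 groups overlap only in part, so a kept call also decides nothing about the source of a difference, which was not tested.

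Cultured cardiac fibroblasts, a cell type without sarcomeres, were examined on their own. Their libraries were made from polyA RNA, those of the hearts from total RNA, and the experiments were fitted separately, so levels are not compared across the experiments. Cardiomyocyte markers summed to 166.5 to 213.3 CPM, with 9 of 20 at 0 in all co-culture libraries and 3 of 20 at 0 in all libraries of fibroblasts alone. Fibroblast markers averaged 8.93 ± 0.016 (log2 CPM, SD, n = 3) in co-culture and 8.16 ± 0.226 (n = 3) alone. The second library of fibroblasts alone stood apart, with Col1a1 at 7708 CPM beside 1516 and 1856 in the other two, and results are given without it where they move. Macrophage markers summed to 368.8 to 484.6 CPM in the sorted co-culture cells and 793.5 to 1316 in the unsorted cells alone. Adipocyte markers summed to 207.0 to 255.6 and 19.8 to 25.2 CPM, mostly from Fabp4 (means 227 and 19.4 CPM). The part of these cell types in the results was not tested. The family took 0.246 ± 0.0012% of counts in co-culture and 0.335 ± 0.064% alone (SD, n = 3 each). Per length, Slc25a5 exceeded Slc25a4 here, at 579 ± 7.17 and 508 ± 12.3 in co-culture and 1277 ± 169.6 and 1058 ± 204 alone (SD, n = 3 each). The SDs describe the spread between libraries, and within every library Slc25a5 was the higher per length. This order rests on the exon lengths, 1646 bases for Slc25a5 and 2353 for Slc25a4. In counts Slc25a4 was the higher, with a log2 ratio to Slc25a5 of 0.327 ± 0.045 in co-culture and 0.234 ± 0.108 alone.

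With endothelial partners, 12 of 37 tested members were higher and 8 lower than in fibroblasts alone, against 59.8% of all 12293 genes called (30.3% higher and 29.5% lower). The members' share, 54.1%, was near that background, and with total-count scaling 5 were higher and 13 lower (13.5% and 35.1%, beside 20.4% and 42% of all genes). Groups did not overlap for 15 higher and 10 lower members, beside 67% of all genes (33.3% and 33.7%). Slc25a1 was at 154, 150.5 and 173 CPM in co-culture and 54.3, 53.3 and 53.2 alone. The groups did not overlap, and the log2 change was 1.57 ± 0.107 (adjusted p = 5.62e-06, edgeR). Slc25a35 was at 17.2, 26.6 and 21.5 CPM in co-culture and 1.89, 2.31 and 1.56 alone, again without overlap (3.52 ± 0.233, adjusted p = 4.75e-06, edgeR). Its 313 counts in co-culture and 90 alone give a ratio of 11.7 when corrected by TMM-scaled library sizes (95% exact interval 9.2 to 15, counting error only). Up to 31.3% of its exon bases overlap the neighbouring gene Rangrf, so its reads cannot be assigned with certainty. Slc25a23 had the largest fitted rise (4.25 ± 0.706, adjusted p = 0.000866, edgeR), but from 31 counts in co-culture against 5 alone. Corrected in the same way, their ratio was 20.8 with an exact counting interval of 8.0 to 68.7.

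By role, 4 of 7 amino acid carriers were higher and 1 lower, both carnitine-group carriers tested were higher, 2 of 3 di- and tricarboxylate carriers were higher, and 1 of 9 cofactor carriers was higher and 3 lower. With total-count scaling these were 1 higher and 3 lower, 0 of 2 (edgeR), 1 of 3, and 1 higher and 4 lower. Over all genes, 30.3% were higher and 29.5% lower, and 20.4% and 42% with total-count scaling. In the carnitine group DESeq2 called only 1 member higher. There the call for Slc25a20 (0.32 ± 0.119, adjusted p = 0.0408, edgeR) was lost when any library but alone replicate 2 was left out (0.24 to 0.36). Among amino acid carriers, Slc25a22 lost its call without coculture replicate 2, and Slc25a44 without coculture replicate 3 or alone replicate 1. Slc25a29 was at 10.9, 11.2 and 10.3 CPM in co-culture and 2.42, 2.39 and 1.29 alone and rose (2.42 ± 0.266, adjusted p = 7.82e-05, edgeR) without overlap. Slc25a42, the coenzyme A carrier, rose by 1.20 ± 0.293 (adjusted p = 0.00675, edgeR). Going down, Slc25a32, a carrier of folate and flavin cofactors, was at 5.82, 4.25 and 4.37 CPM in co-culture and 12.6, 11.2 and 11.5 alone (-1.30 ± 0.19, adjusted p = 0.000411, edgeR). Slc25a24 was at 9.70, 9.17 and 8.38 CPM in co-culture and 19.9, 14.97 and 21.7 alone (-1.06 ± 0.186, adjusted p = 0.00116, edgeR), so it was lower in co-culture without overlap. Slc25a46 fell as well, from 49.3, 47.6 and 46.3 alone to 26.7, 28.4 and 25.1 CPM (-0.84 ± 0.114, adjusted p = 0.000274, edgeR). Slc25a36 was at 23.8, 22.8 and 18.7 CPM in co-culture and 31.4, 80.3 and 38.7 alone, where the second library alone was far above the rest, and its change of -1.21 ± 0.329 (adjusted p = 0.0117, edgeR) was -0.72 without that library and lost its call without coculture replicate 3 (-1.11). With TMM scaling, the 2 carriers highest per length showed small differences. Slc25a5 was lower (-0.29 ± 0.102, adjusted p = 0.0351, edgeR), a call lost when any library but alone replicate 2 was left out (-0.27 to -0.32). Slc25a4 did not pass (-0.20, adjusted p = 0.173, edgeR) except without the second library alone, where it was -0.33. Of the 6 adenine nucleotide and phosphate carriers tested, 2 were lower and 1 higher with TMM scaling (median log2 change -0.15). Total-count scaling gave 3 lower and 1 higher (median -0.51). Without coculture replicate 3, the number of lower members was 5 instead of 8, and without alone replicate 2 it was 12.

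**Figure D4:**
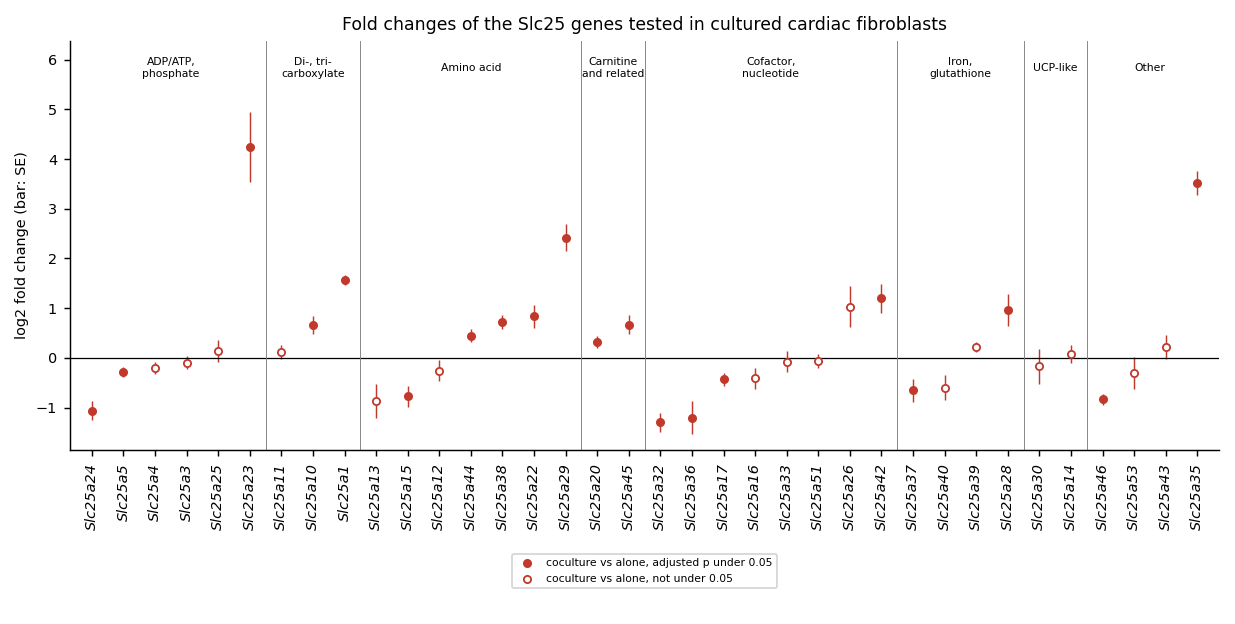
Log2 fold change with its SE (y axis) of 36 of the 37 members tested in fibroblasts (x axis, by role), co-culture against alone, 3 libraries each, with filled points for adjusted p under 0.05. The points run from -1.30 for Slc25a32 to 4.25 for Slc25a23; with total-count scaling the calls go from 12 higher and 8 lower to 5 higher and 13 lower.

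The remaining members fell under the filter and were not tested. In hearts these were Slc25a2 with 0 to 3 counts per library, Slc25a18 with 0 to 7, Slc25a21 with 0 to 4, Slc25a41 with 0 to 1, Slc25a54 with 0 to 4 and Slc25a48 with 0 in every heart. In fibroblasts they were joined by Slc25a27 with 0 to 2 counts, Slc25a31 with 0 to 6, Slc25a34 with 0 to 5 and Slc25a47 with 3 to 14.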

How the data were processed

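RNA was counted in 15 heart and 6 fibroblast libraries (Smart-seq2, modified to carry UMI barcodes, per the labels' protocols). The deposited values are raw counts per gene, and the authors used STAR, HTSeq and mm10, per the submitters' processing notes; the versions and the strandedness were not stated in the sources used here. Of 53801 identifiers, 53706 matched GENCODE M21 without version numbers. In a table of the whole series, 6 columns could not be tied to a sample and were not used. Hearts and fibroblasts were fitted separately in edgeR 4.0.16 (R 4.3.3) with TMM scaling, filterByExpr at a minimum count of 10 and 1 coefficient per group, leaving 17064 and 12293 genes. Quasi-likelihood tests were adjusted by Benjamini-Hochberg over all genes tested, at 0.05. Group means in CPM are given with SDs, and fold changes with SEs. Levels between genes used merged exon lengths. Paralogue ratios used a pseudocount of 0.5 and exact permutation tests (scipy 1.17.1), where 3 against 4 cannot give a p below 0.0571, so MI and sham ratios are values only. DESeq2 1.42.0, limma-voom 3.58.1, other scalings, no filter, a replicate block, a cardiomyocyte covariate, thinning of the fibroblast libraries to 4735337 counts and leaving out each library were the alternatives. Scripts were tested on simulated data. One member counted in the totals is not reported here by name. Every other member could be named; per-library values are given for the 2 members highest per length in each role, up to 5 largest and 5 smallest changes per comparison and the paralogues. Depth limits the precision of low genes, and intervals cover counting error only. The members, roles and lists were chosen with earlier results of these data known.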

Additional observations from a re-analysis of the deposited data

Results flagged for a closer look

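In 9 of 93 groups of 4 hearts examined for the members, a single heart lay apart from the other 3 by more than Dixon's 95% critical value of 0.829 of the range; chance does this in about 1 in 20 groups. FapKO replicate 3 was that heart in 5 of the 9. It had Slc25a3 at 1427 CPM, beside 1168 to 1185 in the other FapKO hearts. It had Slc25a5 at 1527 CPM beside 1023 to 1105, and Slc25a11 at 524 CPM beside 421 to 439. The glutathione carrier Slc25a39 was at 142.9 CPM there beside 116.1 to 120.4, and Slc25a29 at 7.81 CPM beside 4.33 to 4.72. Without that heart all 24 calls in FapKO against MI held. In the MI group, replicate 2 had Slc25a24 at 11.2 CPM beside 8.67 to 8.90, replicate 3 had Slc25a35 at 2.96 CPM beside 1.39 to 1.47, and replicate 1 had Slc25a43 at 3.13 CPM beside 1.37 to 1.56. In the FAPI group, replicate 2 had Slc25a28 at 3.43 CPM beside 2.86 to 2.93.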

How the results depend on the processing

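Counts are of members higher and lower, in the order named. With total-count scaling they were 19 and 13 in MI against sham, 10 and 13 in FAPI against MI, 14 and 18 in FapKO against MI, 2 and 8 in FAPI against FapKO, 14 and 11 in FAPI against sham, 16 and 8 in FapKO against sham and 5 and 13 in co-culture. Total-count scaling also turned Slc25a17 to -0.34 in FAPI against MI and 0.36 in FapKO against sham, Slc25a37 to 0.50 and Slc25a46 to 0.063 in FAPI against sham, Slc25a39 to 0.054 in FapKO against sham and Slc25a20 to -0.022 in co-culture. With the cardiomyocyte covariate the counts were 1 and 6 in MI against sham, and 0 and 0 in FAPI and in FapKO against MI. They were 4 and 17 in FAPI against sham (beside 18.7% and 15.5% of all genes) and 4 and 13 in FapKO against sham (beside 14.7% and 14.6%). The marker level of sham hearts overlaps with no other group, so here too the model can hardly separate level and group. The covariate turned Slc25a5 to 0.39, Slc25a14 to -0.15 and Slc25a53 to -0.028 in MI against sham, Slc25a3 to -0.031 and Slc25a5 to -0.12 in FAPI against MI, and Slc25a5 to -0.32, Slc25a24 to 0.022 and Slc25a46 to -0.009 in FapKO against MI. The causes were not tested. With only the groups compared, 0 members were higher in FAPI than in FapKO hearts.

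Leaving out each library gave 6 to 7 and 23 to 24 in MI against sham, 14 to 19 and 3 to 6 in FAPI against MI, 20 to 21 and 4 to 5 in FapKO against MI, 0 to 1 and 5 to 12 in FAPI against FapKO (12 without FAPI replicate 4), 4 to 6 and 21 to 23 in FAPI against sham, 4 to 5 and 14 to 20 in FapKO against sham, and 9 to 13 and 5 to 12 in co-culture. Labels repeat replicate numbers. In hearts, deviations of libraries of the same number had r of -0.259 to 0.298 (7 of 21 pairs over 0.1). Those of different numbers had r of -0.359 to 0.415 (15 of 63 over 0.1). In fibroblasts the values were -0.148 to 0.049 (0 of 3) for the same number and -0.1 to 0.155 (1 of 6) for different numbers. With the replicate number as a block, counts were 6 and 23, 16 and 5, 20 and 4, 1 and 8, 5 and 23, 5 and 21, and 10 and 8 in the same order. DESeq2 kept 29 of 30 calls in MI against sham, 22 of 22 in FAPI against MI and 24 of 24 in FapKO against MI, 8 of 8 in FAPI against FapKO, 26 of 28 in FAPI against sham, 25 of 25 in FapKO against sham and 17 of 20 in co-culture, and limma-voom 29, 21, 24, 8, 27, 24 and 20.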

Other observations

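Uncoupling proteins and Mtch proteins belong to the same protein family under other symbols. Ucp3, the uncoupling protein of muscle, was at 6.65, 7.51 and 5.24 CPM in sham, 0.774, 0.593, 0.778 and 0.578 in MI, 1.90, 3.40, 0.867 and 1.18 in FAPI and 11.5, 9.27, 11.9 and 11.04 in FapKO hearts. FapKO hearts were above all others, sham hearts included, and MI hearts were below all others. Ucp3 fell in MI against sham by 3.24 on the log2 scale, rose with FAPI by 1.40 (adjusted p = 0.0051, edgeR) and was 15.9-fold higher in FapKO than in MI hearts (log2 4.00, SE 0.311, adjusted p = 2e-07, edgeR). FAPI against FapKO gave -2.60 (adjusted p = 2.4e-05, edgeR), and FapKO against sham 0.76 (SE 0.284, adjusted p = 0.0448, edgeR). Mtch2, an outer-membrane insertase, fell in MI by 1.34 and rose by 0.49 with FAPI and 0.72 in FapKO hearts on the log2 scale, although with total-count scaling the last 2 values were 0.08 and 0.18 and were not called. The other two tested genes of this list went the other way. Ucp2 was higher in MI than in sham (1.06, SE 0.166) and lower than MI with FAPI (-0.83) and in FapKO hearts (-0.86). Mtch1 was likewise higher in MI (0.70, SE 0.116) and lower with FAPI (-0.43) and in FapKO hearts (-0.44), all past the threshold and, for both genes, also with total-count scaling.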
